A study of Mus musculus with 2 samples.

Results

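The AP-1 family followed here comprised 7 genes, Jun, Junb, Jund, Fos, Fosb, Fosl1 and Fosl2. They were chosen by name, with earlier results of these data known. The count matrix held 31054 features in the normal library and 32285 in the wounded library, and all 7 genes were listed in both. Each gene was read in the 4 deposited clusters of normal cells, in the 6 deposited clusters of wounded cells, and in the cells that passed the study's filters but were in neither deposited table.

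The cells came from the anorectal junction of K17CreERT2;R26RGFP mice on a C57/BL6J background, where the anal epithelium meets the rectum at the transition zone (TZ). In these mice tamoxifen activates a Cre recombinase expressed from the Krt17 promoter, which switches on a GFP reporter in Krt17+ cells. Both libraries came from tamoxifen-treated mice carrying these alleles. The wounded tissue was taken 1 week after a wound by hot EDTA and an electric brush, which removes rectal crypts next to the TZ (mice of 2 to 4 months at wounding). Wounding was done under isoflurane, after an injection of METACAM, so below the wound stands for these treatments together. The normal tissue was not wounded. Normal mice had 2 days of tamoxifen, and wounded mice had theirs before the wound, so the time since tamoxifen was longer in the wounded library. The study's isolation protocol pooled the tissue of at least 5 mice, with no separate number given for the wounded library. Tissue was digested with collagenase at body temperature and sorted, and there was 1 library per condition. The sort gated on scatter against doublets, on a viability dye, on EpCam, and on the absence of CD45, CD11b, CD31 and PDGFRa, which would remove immune, endothelial and fibroblast cells. No test between conditions or clusters was therefore possible, and every interval below covers counting error only.

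AP-1 is a dimeric transcription factor whose subunits carry a basic leucine zipper, the paired helix that holds the dimer together and contacts DNA. Jun proteins pair with each other or with Fos proteins, whereas Fos proteins need a Jun partner. Several of these genes are immediate-early genes: their transcription starts within minutes of growth factors, injury or stress, without new protein synthesis, and tissue dissociation is a known trigger. In stratified epithelium AP-1 is known for its part in keratinocyte proliferation, differentiation and wound repair.

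The genes lie on 6 chromosomes of GRCm38 (GENCODE M21 annotation). Jun (ENSMUSG00000052684) spans chr4:95049034-95052222 on the minus strand in 1 exon, Junb (ENSMUSG00000052837) chr8:84974484-84978718 on the minus strand, and Jund (ENSMUSG00000071076) chr8:70698949-70700616 on the plus strand in 1 exon. Fos (ENSMUSG00000021250) spans chr12:85473890-85477273 on the plus strand, with up to 4 exons in a transcript. Fosb (ENSMUSG00000003545) spans chr7:19302696-19310051 on the minus strand, Fosl1 (ENSMUSG00000024912) chr19:5447547-5455946 on the plus strand and Fosl2 (ENSMUSG00000029135) chr5:32135801-32157842 on the plus strand. Annotated genes on the opposite strand overlap Jun (Junos), Junb (Prdx2), Jund (Gm11175) and Fosl1 (Ccdc85b). Whether the counting used strand is not given in the sources used here, so reads of these pairs may not have been told apart.

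RefSeq promoter windows of 300 bases, 250 before and 50 after the transcript start (GRCm38.p6), were at hand for 6 of the 7 members. The windows of Jun, Junb and Fos are shown because they are the ones in which a searched motif was found. Capitals mark the matches, and each sequence runs 5′ to 3′ on the gene's own strand.
Jun: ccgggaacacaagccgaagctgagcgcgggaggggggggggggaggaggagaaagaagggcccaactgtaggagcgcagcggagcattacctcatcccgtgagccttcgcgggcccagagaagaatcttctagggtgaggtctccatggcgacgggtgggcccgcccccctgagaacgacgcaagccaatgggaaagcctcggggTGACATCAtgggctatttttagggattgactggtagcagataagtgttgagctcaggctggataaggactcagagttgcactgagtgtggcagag
Junb: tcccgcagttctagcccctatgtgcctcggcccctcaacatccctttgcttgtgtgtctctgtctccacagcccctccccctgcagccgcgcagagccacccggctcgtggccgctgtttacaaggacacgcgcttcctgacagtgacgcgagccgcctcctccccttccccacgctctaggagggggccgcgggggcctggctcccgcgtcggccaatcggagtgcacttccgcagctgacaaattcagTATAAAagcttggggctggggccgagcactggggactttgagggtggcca
Fos: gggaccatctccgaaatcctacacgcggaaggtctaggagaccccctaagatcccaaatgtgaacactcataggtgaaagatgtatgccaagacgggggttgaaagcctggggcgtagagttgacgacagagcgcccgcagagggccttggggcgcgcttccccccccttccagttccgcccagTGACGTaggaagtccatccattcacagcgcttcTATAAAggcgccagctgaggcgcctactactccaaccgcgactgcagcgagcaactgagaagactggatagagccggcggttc
The Jun window is chr4:95052173-95052472 (minus strand), the Junb window chr8:84978699-84978998 (minus strand) and the Fos window chr12:85473640-85473939 (plus strand). Motifs searched on both strands were the AP-1 site TGACTCA, the cyclic AMP response element TGACGTCA and its core TGACGT (which the full element contains), the variant TGACATCA known from the Jun promoter, the TATA box TATAAA and the CArG box, the core of the serum response element. The Jun window held TGACATCA beginning 45 bases before the start. The Fos window held TGACGT beginning 66 bases before the start and TATAAA 33 bases before it. In the Junb window TATAAA began at the first transcribed base of the RefSeq start, which lies 30 bases upstream of the GENCODE start. Among 32851 windows of this kind, TGACATCA was found in 3.62%, TGACGT in 7.51%, TATAAA in 13.6%, TGACTCA in 5.20%, TGACGTCA in 1.79% and the CArG box in 1.63%. The windows of Jund, Fosb and Fosl2 held no match to these letters, which says nothing of these promoters. The RefSeq start of Jund lies 1210 bases upstream of the GENCODE start and that of Fosl2 671 bases downstream of it, so those windows do not cover the GENCODE starts.

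Levels are given as unique molecular identifiers (UMIs, 1 per captured RNA molecule) of a gene per 1000000 UMIs of the same cells (CPM), with exact 95% Poisson intervals. Ratios are log2 of the CPM of the first group over that of the second, with exact 95% binomial intervals, and a ratio is called when it is at least 2-fold with at least 20 UMIs in both groups together. The normal library held 2564 barcodes and 17617944 UMIs, and the wounded library 17216 barcodes and 88260050 UMIs. The study's filters left 1548 and 5225 barcodes, and the deposited tables named 939 normal and 4147 wounded cells, 1 of which did not pass the filters here. A further 610 normal and 1078 wounded cells passed the filters but were not in the tables. Cells had medians between 8438 and 12616 UMIs in 9 of the 10 clusters, and 2390 in Hybrid. The libraries shared 1 barcode, which was in no analysed cell of both.

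Not every deposited name was matched by all marker genes examined. The wounded cells named Basal carried the differentiation keratins Krt10 at 1987 CPM and Krt1 at 2473 CPM and Krt17 at 381 CPM. The normal cells named Basal had Krt10 at 48.4 CPM, Krt1 at 17.4 CPM and Krt17, the marker of the TZ, at 2265 CPM, while normal Anal Canal cells had Krt10 at 2228 CPM and Krt1 at 2286 CPM. In these keratins the wounded Basal cells were therefore closer to normal Anal Canal than to normal Basal. Summed markers of the basal layer were at 13016 CPM in wounded Basal, above every other wounded cluster. They were at 10865 CPM in normal Basal and 18781 CPM in normal Anal Canal. Summed suprabasal markers were at 8589 CPM in wounded Basal, 570 CPM in normal Basal and 10247.5 CPM in normal Anal Canal. Rectum cells had the glandular keratin Krt8 at 2741 CPM (normal) and 2386 CPM (wounded). Regeneration and Wound_Stress had Il33, an alarmin of injured epithelium, at 134 and 154 CPM, above every other deposited cluster. They also had a summed 3057 and 1953 CPM of anal gland markers, against at most 727 CPM in the other deposited clusters. Normal cells not in the tables had Il33 at 94.5 CPM, so it was also present without a wound. Hybrid had Krt17 at 1148 CPM and Krt8 at 430.2 CPM, but also a summed 2689 CPM of 4 enteroendocrine markers, against at most 267 CPM in the other clusters, and 127 CPM of 6 endothelial markers. All names below are used as deposited.

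Jun encodes the founding Jun subunit, a strong activator that pairs with every Fos protein. In normal tissue it was at 154 CPM in Anal Canal, 1438 CPM in Basal, 362 CPM in Suprabasal and 234 CPM in Rectum. In wounded tissue it was at 142 CPM in Basal, 809 CPM in Suprabasal, 3488 CPM in Regeneration, 324 CPM in Wound_Stress, 739 CPM in Hybrid and 791 CPM in Rectum. Regeneration stood above all other clusters, and normal Basal came next, with no overlap of intervals. The intervals of wounded Suprabasal, Rectum and Hybrid overlapped as neighbours in the order, and those of normal Anal Canal and wounded Basal, the lowest pair, overlapped as well.

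Junb encodes a subunit that activates transcription less strongly than Jun at single sites and is known for roles in epidermal and immune cells. In normal tissue it was at 259 CPM in Anal Canal, 1079.9 CPM in Basal, 252 CPM in Suprabasal and 200.2 CPM in Rectum. In wounded tissue it was at 106 CPM in Basal, 254 CPM in Suprabasal, 1091 CPM in Regeneration, 76.9 CPM in Wound_Stress, 295 CPM in Hybrid and 161 CPM in Rectum. Regeneration (1073 to 1109) and normal Basal (1041 to 1120) could not be told apart by counting error. All other clusters were below 300 CPM, and the intervals of the 6 clusters from Hybrid down to wounded Rectum overlapped from neighbour to neighbour.

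Jund encodes the Jun subunit that most cells make without stimulation. It varied least of the 3 Jun genes, 7.09-fold between the lowest and the highest cluster against 24.6-fold for Jun and 14.2-fold for Junb. In normal tissue it was at 283 CPM in Anal Canal, 794 CPM in Basal, 341 CPM in Suprabasal and 596 CPM in Rectum. In wounded tissue it was at 172 CPM in Basal, 356 CPM in Suprabasal, 1103 CPM in Regeneration, 155 CPM in Wound_Stress, 513 CPM in Hybrid and 523 CPM in Rectum. It was the one Jun gene for which normal Rectum came next after Regeneration and normal Basal, and the intervals of both Rectum clusters and Hybrid overlapped from neighbour to neighbour.

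Fos encodes the prototype immediate-early subunit, which is rapidly made and rapidly degraded. In normal tissue it was at 420.2 CPM in Anal Canal, 2154 CPM in Basal, 298 CPM in Suprabasal and 430.3 CPM in Rectum. In wounded tissue it was at 102 CPM in Basal, 552 CPM in Suprabasal, 2671 CPM in Regeneration, 194 CPM in Wound_Stress, 523 CPM in Hybrid and 401 CPM in Rectum. It spanned 26.1-fold over the clusters, with Regeneration first and normal Basal second, and their intervals did not overlap.

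Fosb, a close relative of Fos that is also induced early, was at 37.9 CPM in normal Anal Canal, 240.3 CPM in Basal, 28.9 CPM in Suprabasal and 44.0 CPM in Rectum. In wounded tissue it was at 35.5 CPM in Basal, 164 CPM in Suprabasal, 849.9 CPM in Regeneration, 45.0 CPM in Wound_Stress, 129 CPM in Hybrid and 117 CPM in Rectum. Its span of 29.4-fold was the widest of the 6 members that had UMIs in every cluster. Regeneration was again first and normal Basal second, without overlap.

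Fosl1 and Fosl2 encode Fra-1 and Fra-2, Fos-related subunits that lack the strong activation domain of Fos. Fosl1 was scarce: 26 UMIs in normal Anal Canal (5.93 CPM), 35 in Basal (12.9 CPM) and none in Suprabasal or Rectum, where the exact intervals reach up to 1.62 and 5.24 CPM. In the wounded library 440 of its UMIs fell in Regeneration (33.8 CPM, 30.7 to 37.1), against 3 to 8 UMIs in each of the other 5 clusters (0.402 to 3.37 CPM). Fosl2 was at 30.8 CPM in normal Anal Canal, 74.3 CPM in Basal, 42.1 CPM in Suprabasal and 46.9 CPM in Rectum. In wounded cells it was at 54.2 CPM in Basal, 66.9 CPM in Suprabasal, 141 CPM in Regeneration, 32.2 CPM in Wound_Stress, 41.8 CPM in Hybrid and 37.2 CPM in Rectum. Its span was 4.57-fold, and from wounded Basal down to normal Anal Canal each neighbour's interval overlapped the next. Among the deposited clusters, all 7 members had their highest value in Regeneration and their next highest in normal Basal. The intervals of these clusters overlapped for Junb, and that of normal Basal overlapped wounded Suprabasal for Fosl2. Outside the deposited clusters, normal cells not in the tables had Junb at 1142 CPM (1115 to 1169), above the interval of Regeneration.

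**Figure D1:**
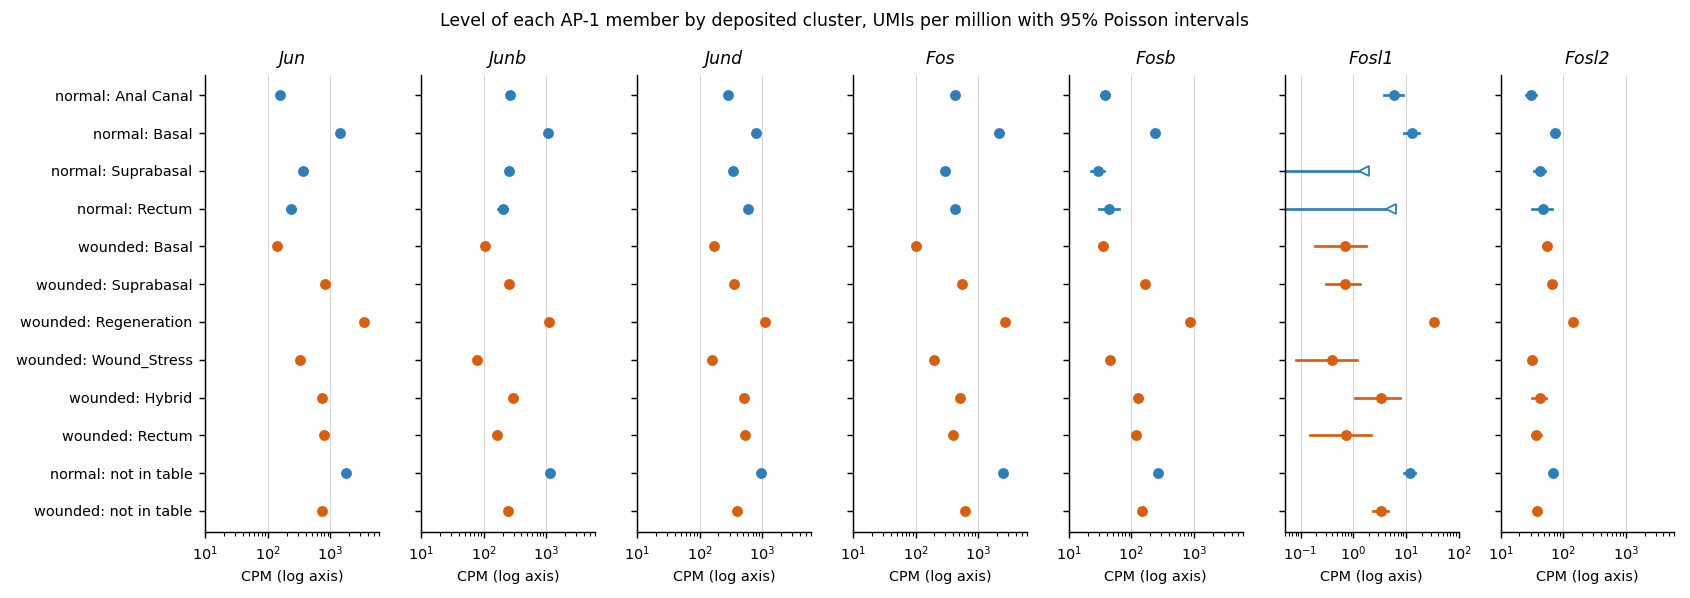
Level of each member in CPM (log axes, with a lower range for Fosl1) in the 10 deposited clusters and in the cells not in the tables, normal in blue and wounded in orange. Points are the summed level, lines the 95% Poisson interval, and open triangles mark 0 UMIs at the upper bound. In all 7 panels the point of wounded Regeneration lies farthest to the right among the deposited clusters, with Jun at 3488 CPM and Fos at 2671 CPM.

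Summed over the family, the level was 9377 CPM in Regeneration and 5793 CPM in normal Basal, between 1191 and 2245 CPM in 6 clusters, and lowest in Wound_Stress at 827 CPM and wounded Basal at 613 CPM. The make-up of the sum also differed. Fos supplied 37.2% of the family's UMIs in normal Basal and 35.3% in normal Anal Canal, but 16.7% in wounded Basal and 19.7% in wounded Rectum. Jun supplied between 32.9% and 39.1% in 5 of the 6 wounded clusters and 23.1% in wounded Basal, against at most 27.3% in the normal clusters. Jund supplied 38.4% in normal Rectum, its highest share. Junb supplied 12.9% to 21.7% in the normal clusters and 7.92% to 17.3% in the wounded clusters. The protocol counts molecules from their 3′ end, so the UMIs were not divided by gene length.

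**Figure D2:**
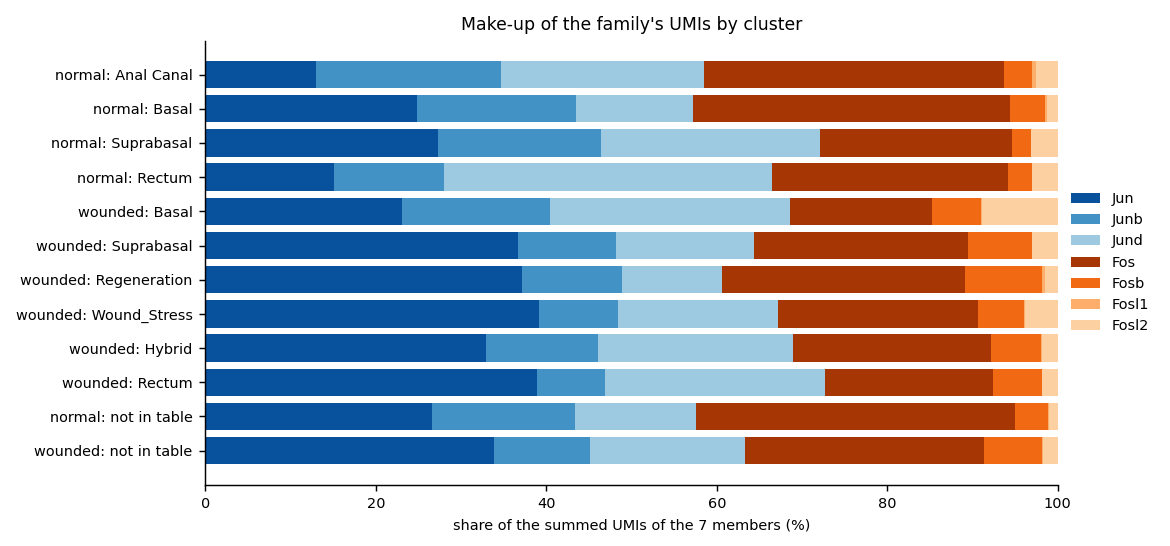
Share of the family's summed UMIs held by each member (horizontal axis, percent) in each deposited cluster and in the cells not in the tables. Blue shades are the Jun genes and orange shades the Fos genes. Fos takes 37.2% in normal Basal and 16.7% in wounded Basal, and Jund takes 38.4% in normal Rectum.

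The study turned to Jun family factors after analysing pathways enriched in Krt17+ clusters. TZ cells of the normal library (Basal and Suprabasal together) were therefore set against its Rectum and Anal Canal. Since the choice of family drew on these same data, the counts of members in these comparisons are descriptions. Against Rectum, 4 members were at least 2-fold higher, where 15.6% of all 10350 genes with at least 20 UMIs were, and none was lower, where 18.7% were. Junb was at 701 CPM in the TZ and 200.2 CPM in Rectum, a log2 ratio of 1.81 (1.56 to 2.06). Jun had a ratio of 2.01, Fosb of 1.71 and Fos of 1.60, and Fosb had 0.92 as a mean over cells, under 2-fold. Jund did not follow them, with 586 and 596 CPM and a ratio of -0.02 (-0.17 to 0.13), and Fosl2 had 0.35 (-0.18 to 0.91). Fosl1 had 35 UMIs in the TZ and none in Rectum. With Rectum set at the floor of 3 UMIs the log2 ratio was 0.72, and the lower limit of the exact interval was 0.35. The median of all genes was -0.12. Rectum had 63 cells and 9.26% mitochondrial UMIs at the median, against 4.77% in Basal. Between cells under 10% mitochondrial UMIs the ratio of Junb was 1.73.

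Against Anal Canal, 5 members were at least 2-fold higher in the TZ, where 9.97% of 11036 genes were, and none was lower (8.87% of genes). Jun had the largest ratio at 2.62 (2.50 to 2.73), with 946 CPM in the TZ and 154 CPM in Anal Canal. Fosb followed with 1.92, Fos with 1.63, Junb with 1.44 (1.34 to 1.53) and Jund with 1.05. Fosl2 had 0.95, and 1.04 between cells under 10% mitochondrial UMIs, and Fosl1 had 0.24 (-0.53 to 1.03).

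Basal and Suprabasal did not contribute alike to these TZ values. Within the normal TZ, 6 members were at least 2-fold lower in Suprabasal than in Basal, where 17.1% of 9682 genes were, and none was higher (6.57% of genes). Fosb had a log2 ratio of -3.05, Fos of -2.85, Junb of -2.10, Jun of -1.99 and Jund of -1.22. Fosl1 had 35 UMIs in Basal and none in Suprabasal. With Suprabasal set at the floor of 3 UMIs the log2 ratio was -3.30, and the upper limit of the exact interval was -2.92. Fosl2 was at -0.82. Suprabasal alone had 252 CPM of Junb, and its interval overlapped that of normal Anal Canal. Its Jun level of 362 CPM (338 to 387) lay above the 154 CPM (143 to 166) of Anal Canal, and its Fos level of 298 CPM below the 420.2 CPM there. The deposited clusters were formed by the study with all genes available as features, so differences between clusters of 1 library are descriptions of how these cells were divided.

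In wounded tissue the same pair of names pointed the other way. Suprabasal was at least 2-fold higher than Basal for 5 members, where 9.85% of 12291 genes were, and none was lower (11.3% of genes). Jun had a log2 ratio of 2.51, Fos of 2.43, Fosb of 2.21, Junb of 1.26 and Jund of 1.05, and Fosl2 had 0.30. Junb and Jund came under 2-fold with cells thinned to equal depth (0.97 and 0.98), as a mean over cells (0.84 and 0.93) and with the deposited whole numbers (0.85 and 0.83). The keratin levels given above belong beside this contrast, since the wounded cells named Basal carried far more Krt10 and Krt1 than the normal ones.

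**Figure D3:**
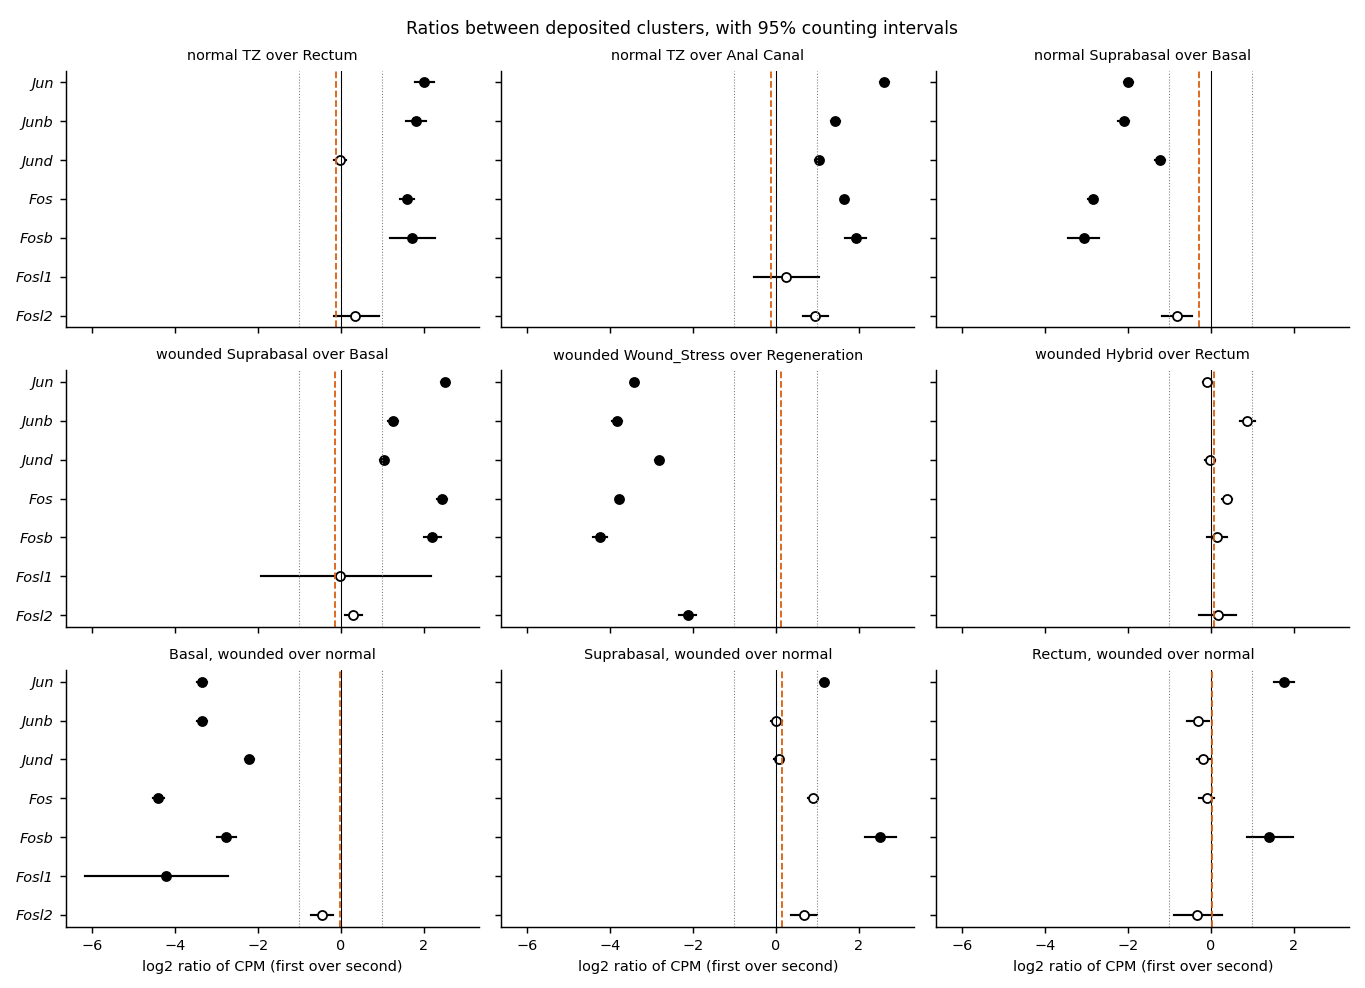
Log2 ratio of CPM (horizontal axis, first group over second) for each member in 9 comparisons of deposited clusters, with 95% counting intervals. Filled points are at least 2-fold, dotted lines mark 2-fold, the dashed line is the median of all genes, and members with 3 or fewer UMIs in a group are left out. Fos lies at -2.85 for normal Suprabasal over Basal and at 2.43 for the wounded pair.

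The Il33-rich wounded clusters stood far apart in this family. In Wound_Stress all 7 members were at least 2-fold lower than in Regeneration, where 6.47% of 12105 genes were lower and 4.23% higher, and the median of all genes was 0.13. Fos was at 194 CPM (184 to 204) and 2671 CPM (2643 to 2699), a log2 ratio of -3.79 (-3.86 to -3.71). Fosb had -4.24, Junb -3.83, Jun -3.43, Jund -2.83 and Fosl2 -2.13. Fosl1 had 3 UMIs against 440, a ratio of -6.39 (-8.68 to -4.84). Cells differed in quality as well: Wound_Stress had 8532 UMIs and 11.0% mitochondrial UMIs at the median, Regeneration 12616 UMIs and 5.91%. Between cells under 10% mitochondrial UMIs the ratio of Fos was -3.82, and with every cell thinned to 2000 UMIs it was -4.14.

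To see which other genes these cells carried, wounded cells were grouped again without the 7 members and 19 other immediate-early genes. In 6 of the resulting classes Regeneration and Wound_Stress cells lay together, with at least 21 cells of each. In each class the summed family level was higher in the cells named Regeneration, by log2 ratios between 2.71 and 4.42. The highest ratio was that of the anal gland-like class, where the 21 Wound_Stress cells had a median of 2760 UMIs and 19.9% mitochondrial UMIs and the 41 Regeneration cells 19908 UMIs and 6.65%. In the class with the most cells of both (286 and 343 cells, led by Saa3, Nrg2 and Il33) the sums were 10210.1 and 913 CPM, and Junb was at 1114 and 75.8 CPM. In this class the median mitochondrial share was 5.63% and 9.58%. Both names were thus spread over several classes formed on other genes. Genes that followed the family, such as Atf3 and Dusp6, were not left out, so the classes may not be independent of its pattern. Since the deposited names were given with AP-1 genes available, the differences between them within a class are descriptions too. When each regrouped cluster of the tabled cells took its commonest deposited name, 82.0% of wounded cells kept their name and the ratio of Fos was -2.94.

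Together, Wound_Stress and Regeneration were at least 2-fold above Basal and Suprabasal for 6 members, where 8.43% of 13485 genes were and 12.8% were lower, with Fos at 2.13, Jun at 1.99 and Junb at 1.81. This mean hides the split, since Wound_Stress alone had less Jun (324 CPM) and Junb (76.9 CPM) than wounded Suprabasal. Set against wounded Rectum, Regeneration was at least 2-fold higher for 7 of 7 members, where 14.7% of 12443 genes were and 22.5% were lower, from Jund at 1.08 (0.78 with regrouped clusters, under 2-fold) to Fosb at 2.87 and, on 3 UMIs in Rectum, Fosl1 at 5.53 (3.98 to 7.82).

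Hybrid cells, described in the study as a state between TZ and rectum, were set against wounded Rectum. As deposited, none of the 6 members with at least 20 UMIs was at least 2-fold higher or lower. Of 11114 genes, 13.4% were higher and 13.9% lower. Among these 6 members Junb came closest, at 295 CPM in Hybrid and 161 CPM in Rectum, a log2 ratio of 0.88 (0.70 to 1.05). Fosl1 had 5 UMIs in Hybrid and 3 in Rectum, too few for a call. Fos had 0.38, and Jun (-0.10), Jund (-0.03), Fosb (0.15) and Fosl2 (0.17) were nearer to 0. The Junb value leaned on few cells: without the 10% of cells with the most Junb UMIs in each cluster it was 0.14. With cells thinned to 2000 UMIs, which left out 132 of the 316 Hybrid cells as too shallow, it was 0.39. Regrouping without the members put 28 Hybrid cells in an enteroendocrine-like class led by the gut hormone genes Pyy, Insl5 and Ppy, with a family sum of 5173 CPM. When regrouped clusters took their commonest deposited name, Hybrid kept 28 cells, and 5 members were then at least 2-fold above Rectum, with Fosb at 1.91, Junb at 1.69, Fos at 1.68, Jund at 1.23 and Jun at 1.09. Without the top cells of the deposited Hybrid cluster Fosb was at -1.62. The outcome of this comparison therefore depended on which Hybrid cells entered it. The largest other class of Hybrid cells (122 cells, lying with wounded Basal cells) had a family sum of 887 CPM.

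Over wounded Basal, Hybrid was at least 2-fold higher for 5 members, where 13.5% of 11201 genes were and 6.76% were lower, with Jun at 2.38, Fos at 2.35, Fosb at 1.87, Jund at 1.57 and Junb at 1.48. With thinned cells Fosb had 0.98, and Fosl2, at -0.37, had -1.19 between cells under 10% mitochondrial UMIs. Over wounded Suprabasal none was at least 2-fold higher or lower, where 20.5% and 7.78% of 11982 genes were, with ratios between -0.68 for Fosl2 and 0.53 for Jund among the 6 members with at least 20 UMIs. With regrouped clusters Jund had 1.61, Fosb 1.10 and Fosl2 -1.48.

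Between conditions, the cells named Basal differed most. Junb was at 106 CPM (97.8 to 115) in wounded Basal and 1079.9 CPM (1041 to 1120) in normal Basal, a log2 ratio of -3.35 (-3.48 to -3.22). Fos had -4.39, Jun -3.34, Fosb -2.76, Jund -2.20 and Fosl1, on 4 and 35 UMIs, -4.21 (-6.17 to -2.73), so 6 members were at least 2-fold lower and none higher, where 13.6% and 15.6% of 11035 genes were. Fosl2 was at -0.46. Since the name covered cells with other keratins in the 2 libraries, wounded Basal was also set against normal Anal Canal. There 3 members were at least 2-fold lower, where 7.02% of 11087 genes were and 10.2% were higher: Fos at -2.04, Junb at -1.29 and, on 4 and 26 UMIs, Fosl1 at -3.09 (-5.07 to -1.56). Junb had -0.99 with the deposited whole numbers, and Fosb -1.07 without the top cells. Jun (-0.12), Fosb (-0.09) and Jund (-0.72) were not, and Fosl2 was at 0.81. Library, dissociation, counting, time since tamoxifen and wound cannot be told apart in either comparison, with 1 library per condition. Counting differed in software version (3.1.0 normal, 4.0.0 wounded in the matrix headers) and in features (31054 and 32285).

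Suprabasal cells kept their Krt17 across conditions (9389 CPM normal, 7100.3 CPM wounded), but other markers differed. Summed suprabasal markers were at 11563 and 5531 CPM, Krt1 at 448 and 98.7 CPM, and the basal keratin Krt15 at 439 and 983 CPM. Summed markers of the basal layer were alike, at 8411 and 7947 CPM. The part of these differences in the AP-1 ratios was not tested. Between the Suprabasal cells of the 2 libraries the pattern of the family was uneven. Jun was 1.16 (1.06 to 1.26) and Fosb 2.51 (2.15 to 2.88) higher on the log2 scale in the wounded library, where 16.2% of 11430 genes were at least 2-fold higher and 5.63% lower. Fos was at 0.89, Fosl2 at 0.67, Jund at 0.06 and Junb at 0.01 (-0.12 to 0.14). The ratio of Jun was 0.85 with cells thinned to 2000 UMIs and 0.98 as a mean over cells, and that of Fos was 1.58 without the top cells. Rectum showed a like division, with Jun at 1.75 (1.53 to 1.99) and Fosb at 1.40 (0.88 to 1.98), where 11.6% of 10197 genes were at least 2-fold higher and 6.41% lower, and with Fos at -0.10, Jund at -0.19, Junb at -0.32 and Fosl2 at -0.33. As a mean over cells, the ratio of Fosb in Rectum was 0.78. Normal and wounded Rectum had summed rectum markers at 11559 and 9990 CPM. Summed fibroblast markers were at 1.42 and 242 CPM there, and those of the basal layer at 216 and 573 CPM. The part of these differences in the ratios was not tested. The comparisons of Suprabasal and of Rectum use the same libraries and are not independent of each other. In them, too, library, dissociation, counting, time since tamoxifen and wound cannot be told apart.

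For single cells, each was thinned at random to 2000 UMIs. Cells below that depth could not enter, which cost 2 to 43 cells per deposited cluster and 132 in Hybrid. A Regeneration cell held a median of 18 family UMIs, with 6 at the 10th percentile and 34 at the 90th, and 0.710% of its cells had none. A normal Basal cell held a median of 4 but 30.6 at the 90th percentile, and 13.3% of these cells had none. Every other cluster had medians between 1 and 3. The 10% of cells with the most family UMIs held 22.0% of them in Regeneration, 40.6% in normal Basal and 53.8% in wounded Basal. High AP-1 was thus spread over nearly all cells named Regeneration and over a portion of those named normal Basal. The names were given with AP-1 genes available, so this spread describes how the cells were divided.

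**Figure D4:**
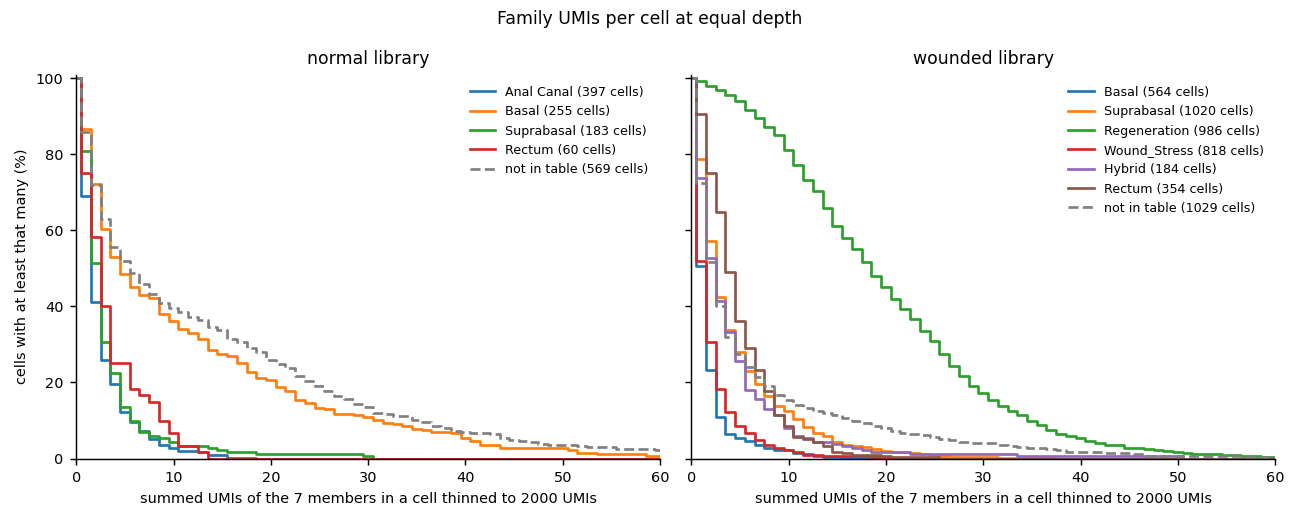
Percent of cells (vertical axis) with at least a given number of family UMIs (horizontal axis) after thinning to 2000 UMIs, normal library on the left and wounded on the right. Each line is a deposited cluster, and the dashed line is the cells not in the tables. Regeneration has a median of 18 UMIs, normal Basal of 4, and the other deposited clusters between 1 and 3.

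In Regeneration, 96.0% of thinned cells had a UMI of Jun, 86.7% of Fos and 76.0% of Junb, and 85.3% had both Jun and Fos. In normal Basal 61.2% had Jun, 56.5% Fos and 54.1% Junb, and 47.1% had both Jun and Fos. Across normal Basal cells Pearson's r between thinned counts was 0.73 for Junb with Fos and 0.69 for Jun with Fos, over 255 cells of 1 library. Across the 986 Regeneration cells it was 0.43 and 0.55, and it was lower for other pairs, such as Jun with Jund (0.19), Fos with Fosl2 (0.05) and Jun with Fosl1 (-0.01). Before thinning, 77.4% of normal Basal cells and 97.2% of Regeneration cells had a Junb UMI, against 63.7% in normal Anal Canal, 55.6% in normal Rectum and 35.0% in Wound_Stress. After thinning these shares were 54.1%, 76.0%, 32.7%, 26.7% and 10.0%. No cell type that should lack these genes was at hand to give a background share.

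Cells of normal Basal, Regeneration and wounded Basal were also split at the cluster's median mitochondrial share and depth. The size of the family's difference, and for depth its direction, varied between these clusters. In normal Basal the family sum was 7155 CPM in cells below the cluster's median mitochondrial share and 3864 CPM in the rest, a log2 ratio of -0.89. The deeper cells of that cluster exceeded the shallower ones by 0.63 on the same scale. In Regeneration both splits gave smaller differences, -0.32 by mitochondrial share and -0.27 by depth. In wounded Basal they were -0.07 and -0.15. Their part in the differences between clusters was not tested.

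Genes with the most similar pattern were ranked by Pearson's r of log2(CPM + 1) over the 10 deposited clusters. The ranking drew on 8554 genes with at least 10 CPM in at least 3 clusters, and family members among them were passed over. Jun was most like Btg2 (r = 0.98), Coq10b (0.96) and Egr1 (0.96). Junb was most like Itpkc (0.96), Cxcl1 (0.95) and Dusp6 (0.95), and Fos most like Nr4a1 (0.97), Zfp36 (0.95) and Dusp6 (0.95). Jund was nearest to Ier2 (0.96), Klf2 (0.94) and Cebpd (0.92), and Fosb to Slc25a25, Dusp8 and Klf6 (each 0.95). Fosl2 was nearest to Sbno2, Klf6 and Csrnp1 (0.89 to 0.90). Fosl1 rested on few UMIs, and its nearest genes were Ifrd1, Nfkbia and Ndel1 (each 0.92). Within the family the closest pairs were Jun with Fosb (0.95) and Junb with Fos (0.95), and the most distant Jund with Fosl1 (0.61). The 10 points come from 2 libraries.

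Other immediate-early genes, factors and feedback regulators induced with AP-1, followed the family. Of 19, all 19 were at least 2-fold lower in Wound_Stress than in Regeneration, where 6.47% of all genes were (median log2 ratio -3.72, 0.13 over all genes). Btg2 was at 152 and 1635 CPM, Ier3 at 49.5 and 1303 CPM, Egr1 at 57.9 and 1182 CPM and Ier2 at 104 and 1049.9 CPM. In the normal TZ over Rectum 12 of 18 measured were at least 2-fold higher and none lower (median 1.79, all genes -0.12), where 15.6% and 18.7% of all genes were. In wounded over normal Basal 15 of 18 were at least 2-fold lower and none higher (median -3.69, all genes -0.02), where 13.6% and 15.6% of all genes were. Between Hybrid and Rectum 5 of 18 were higher (median 0.58, all genes 0.08), where 13.4% of all genes were.

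The 13 related leucine-zipper partners are proteins that can pair with Jun or Fos or compete for their sites. In Wound_Stress 6 of 11 measured were at least 2-fold lower than in Regeneration and none higher (median -1.76), against 6.47% and 4.23% of all genes. Atf3, a stress-induced partner of Jun, was at 14.5 CPM and 1269 CPM, and Atf4, a factor of the integrated stress response, at 77.6 and 316 CPM. Atf7 (52.0 and 36.0 CPM) and Mafg (32.6 and 41.7 CPM) did not pass 2-fold. In the normal TZ over Rectum 3 of 9 were higher and none lower (median 0.53), against 15.6% and 18.7% of all genes. In wounded over normal Basal 3 of 10 were higher and 4 lower (median 0.13), against 15.6% and 13.6%.

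Kinases and promoter factors upstream of AP-1 are controlled mainly by phosphorylation. Of 16 measured, 1 was at least 2-fold lower in Wound_Stress than in Regeneration and none higher (median 0.15, close to 0.13 for all genes). The shares of all genes were 6.47% and 4.23%, so this list was near them. Map2k2 was at 96.4 and 99.1 CPM, Mapk3 at 57.5 and 68.3 CPM and Map3k1 at 72.9 and 61.1 CPM. In the normal TZ over Rectum 3 of 16 were higher and 2 lower (median -0.09), against 15.6% and 18.7% of all genes. In wounded over normal Basal 1 was higher and 3 lower (median 0.17), against 15.6% and 13.6%. With so few genes these counts do not stand apart from the shares of all genes.

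Of 16 known AP-1 target genes only 7 reached 20 UMIs in the comparison of Wound_Stress with Regeneration. In Wound_Stress 2 of these were at least 2-fold lower (median -0.40), against 6.47% of all genes. Hbegf, an EGF receptor ligand, was at 3.22 and 35.8 CPM. Cd44, a hyaluronan receptor, was at 68.2 and 61.2 CPM, Vegfa, an angiogenic growth factor, at 34.7 and 57.9 CPM, and Ccnd1, a cyclin of the early cell cycle, at 1.88 and 1.92 CPM. Ccnd1 and Cd44 were at 119 and 172 CPM in normal Anal Canal, above both. In the normal TZ over Rectum 4 of 7 targets were higher and 1 lower (median 1.64), against 15.6% and 18.7% of all genes. Over Anal Canal 2 of 9 were higher and 6 lower (median -1.33), against 9.97% and 8.87%. In wounded over normal Basal 4 of 10 were higher and 2 lower (median 0.58), against 15.6% and 13.6%.

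Heat shock genes respond to heat and to cell isolation. In Wound_Stress 5 of 8 were at least 2-fold lower than in Regeneration and none higher (median -1.19), against 6.47% and 4.23% of all genes. Hspb1 was at 17.3 and 120.3 CPM, whereas Hspa8 (1167 and 1460.1 CPM), Hsp90aa1 (284 and 493 CPM) and Hspe1 (310.4 and 306 CPM) did not pass 2-fold. In the normal TZ over Rectum 4 of 8 were higher and none lower (median 1.49), against 15.6% and 18.7% of all genes. In wounded over normal Basal 1 was higher and 3 lower (median -0.24), against 15.6% and 13.6%. The part of cell isolation was not tested, and no library prepared without dissociation was analysed here.

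The cells not in the deposited tables carried much of the normal library's AP-1. At 6778 CPM the family sum in these 610 cells was above that of every normal cluster, with Jun at 1800.5 CPM, Junb at 1142 CPM, Jund at 961 CPM, Fos at 2531 CPM, Fosb at 263 CPM, Fosl1 at 11.9 CPM and Fosl2 at 67.8 CPM. Over the tabled normal cells 5 members were at least 2-fold higher, where 13.6% of 12700 genes were and 9.96% were lower. Fosl1, at 0.97, passed it as a mean over cells (1.12). The 1078 wounded cells had a sum of 2188 CPM, with Jun at 742 CPM, Junb at 245 CPM, Jund at 399 CPM, Fos at 613 CPM, Fosb at 147 CPM, Fosl1 at 3.37 CPM and Fosl2 at 38.4 CPM. Over the tabled wounded cells 3 members were at least 2-fold lower (Fosb, Fosl1 and Fosl2), where 11.3% of 15180 genes were and 14.3% were higher. With thinned cells none of these 3 reached 2-fold (-0.67, -0.81 and -0.77), and as a mean over cells Fosb had -0.60 and Fosl2 -0.81. Without the top cells Junb, Fos and Jun also passed 2-fold, at -1.85, -1.78 and -1.71, and Fosb was at -2.54.

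Classes formed without the members were used to describe the cells not in the tables. Genes that followed the family, such as Atf3 and Dusp6, were not left out here either. These classes may therefore not be independent of the family's pattern, and their family levels are descriptions. Of the normal cells, 244 fell in a class led by Saa3, Egr4 and Il33. Its nearest list was anal gland, with 8 markers detected and 1 among its top 10 genes, but the mean log2 ratio of that list was 0.97, just under the minimum of 1 for a name. These cells had Jun at 2393 CPM, Fos at 3144 CPM and a family sum of 8379 CPM. Another 187 were hair follicle-like (led by Lhx2, Tbx1 and Nppc), with a sum of 6651 CPM. At the finer resolution 92 cells met this name, with a sum of 11392 CPM and Jun at 2504 CPM in place of 1577 CPM. Another 81 cells lay in a class nearest to the hair follicle list (mean log2 ratio 2.52). That class stayed unnamed because the suprabasal marker Sbsn was among its top genes beside Lhx2. Anal gland-like cells (84) had 2978 CPM, fibroblast-like cells (36) 3524 CPM and smooth muscle and pericyte-like cells (35) 9104 CPM. Among wounded cells the hair follicle-like class (270) had 4565 CPM, the smooth muscle and pericyte-like class (103) 5839 CPM, the fibroblast-like class (213) 2076 CPM and the anal gland-like class (326) 884 CPM. The family sum of each of these 4 named classes was lower in the wounded library at both resolutions. Single members did not all follow. At resolution 0.5, hair follicle-like cells had Jun at 1577 CPM normal and 1631 CPM wounded, and Fosb at 229 and 366 CPM. At resolution 1 these were 2504 and 1582 CPM for Jun, and 436 and 347 CPM for Fosb. Library, dissociation, counting, time since tamoxifen and wound cannot be told apart here either. The fibroblast-like and muscle-like cells came through a sort meant to keep EpCam-positive, PDGFRa-negative cells. In the wounded anal gland-like class, 41 cells that the table named Regeneration had Jun at 2936 CPM and Fos at 2354 CPM, while the 326 cells not in the table had 297 and 309 CPM and the 21 named Wound_Stress had 2 and 6 UMIs of these genes in the shallow cells described above.

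**Figure D5:**
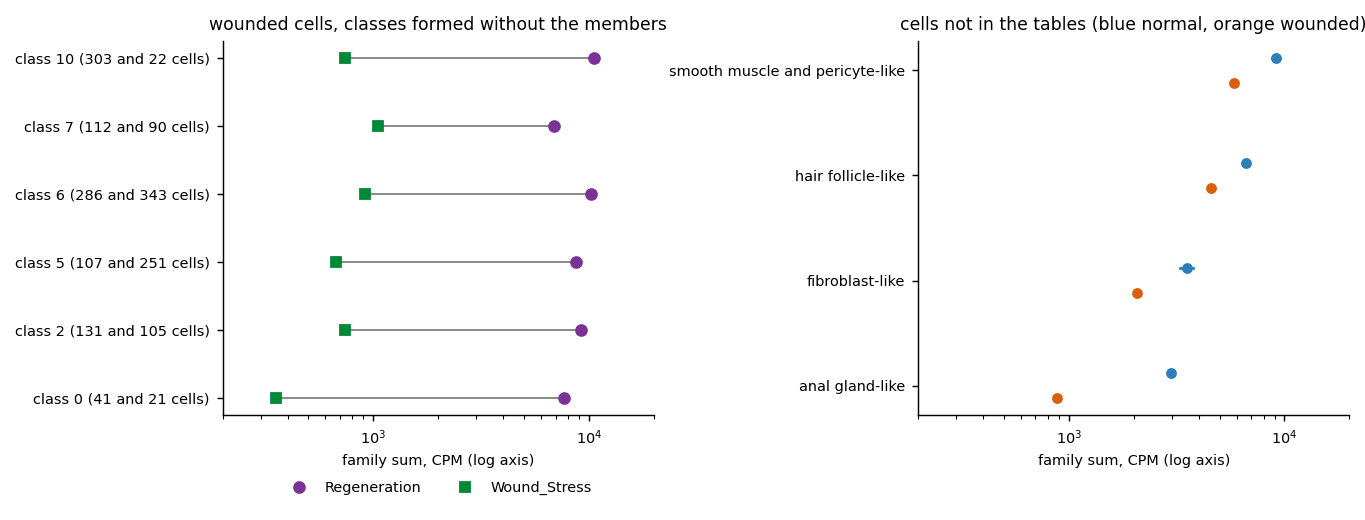
Summed family level in CPM (log axes). Left, wounded cells named Regeneration (circles) and Wound_Stress (squares) within 6 classes formed without the members, with the number of cells of each. Right, named classes of cells not in the deposited tables, with 95% Poisson intervals. In every class on the left the circle lies to the right, as in the class of 286 and 343 cells at 10210.1 and 913 CPM, and on the right the normal point exceeds the wounded one in all 4 classes.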

How the data were processed

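Single cells of the anorectal junction were profiled with the 10x Genomics 3′ protocol, in 1 normal and 1 wounded library. The isolation protocol pooled at least 5 mice, with no separate number given for the wounded library. The authors aligned the reads to mm10 and deposited raw UMI counts per gene and barcode. The submitters' processing notes name Cell Ranger 3.1.0 and Seurat 3.2.2, while the header of the wounded matrix names version 4.0.0. The authors also deposited a table per library of natural log values with a cluster name for each cell. Raising e to such a value and subtracting 1 gives a whole number, which differs from the UMI count of the matrix by a step not given in the sources used here. Cluster names were taken from these tables and counts from the matrices.

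The study's filters (over 200 and under 5000 genes, under 25% mitochondrial UMIs) were applied to find further cells that pass but are not in the tables. In the authors' workflow anal gland, hair follicle and fibroblast clusters were removed, and normal cells with Lgr5, Lhx2 or Tbx1 were filtered further. Doublets were gated against in the sort by scatter, and no computational doublet step is named in the methods or was run here. UMIs were summed per cluster and divided by the cluster's total. With 1 library per condition no test was run, and 3 UMIs served as the floor where a group had none.

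Filter-passing cells were regrouped without the members and 19 other immediate-early genes (scanpy 1.11.5, leidenalg 0.10.2, 2000 variable features, 10 principal components, 20 neighbours, resolution 0.5, with resolution 1 as an alternative). A class was named from marker lists only with at least 3 detected markers and a mean log2 ratio above 1. At least 1 of these markers had to be among its top 10 genes, and every other list had to have fewer genes there. Python 3.11.15, numpy 2.4.6, scipy 1.17.1, pandas 2.3.3 and matplotlib 3.10.9 were used, and the scripts were tested on simulated data. All 7 members were named, with the 3 genes most like each (at least 10 CPM in at least 3 clusters) and the 2 to 4 list genes with the most UMIs, of which 1 is not reported here. The members and lists were chosen with earlier results of these data known. Alternatives were the mean over cells, a denominator without mitochondrial UMIs, a 10% mitochondrial limit, thinning to 2000 UMIs, leaving out the 10% of cells with the most UMIs of the gene, the deposited whole numbers and regrouped clusters. Leaving out the 5% deepest cells, the comparisons of wounded Suprabasal with Basal, wounded Basal with normal Anal Canal, Regeneration with Rectum and Hybrid with Suprabasal, and those within classes were added after seeing the data.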

Additional observations from a re-analysis of the deposited data

Results flagged for a closer look

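The difference between Suprabasal and Basal cells had the opposite sign in the normal and the wounded library for 6 members, although whether the libraries differ was not tested, with 1 library each. The log2 ratio of Suprabasal over Basal was -1.99 in normal and 2.51 in wounded cells for Jun, -2.10 and 1.26 for Junb, and -1.22 and 1.05 for Jund. It was -2.85 and 2.43 for Fos, -3.05 and 2.21 for Fosb, and -0.82 and 0.30 for Fosl2. The wounded cells named Basal had Krt10 at 1987 CPM, and the normal cells of that name 48.4 CPM.

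Barcodes that failed the filters entered no comparison, but they held AP-1 transcripts. The summed family level was 1933 CPM in 1015 such normal barcodes and 1291 CPM in 11991 wounded ones, and the median mitochondrial share of the normal ones was 75.3%.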

How the results depend on the processing

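The 102 member ratios had 782 alternative values between them. Of these ratios 63 were at least 2-fold, and none of the 63 changed sign. Among the other ratios 18 changed sign under at least 1 alternative. Under at least 1 alternative 11 of the 63 came below 2-fold, and 17 of the others passed it. The ratio of Junb in the normal TZ over Rectum (1.81) stayed between 1.61 and 2.01. That of Junb in the TZ over Anal Canal (1.44) was 1.34 without the 10% of cells with the most UMIs of the gene and 1.62 without the 5% deepest cells. For Fos in Wound_Stress over Regeneration (-3.79) the values were -4.07 as a mean over cells, -4.14 thinned, -5.09 without the top cells, -2.94 with regrouped clusters and -3.98 without the deepest cells. Junb in Hybrid over Rectum (0.88) was 0.60 as a mean over cells, 0.39 thinned, 0.14 without the top cells and 1.69 with regrouped clusters. For Junb in Basal, wounded over normal (-3.35), the values were -3.01 as a mean over cells, -3.16 thinned, -3.61 without the top cells, -2.95 from the deposited whole numbers and -3.19 with regrouped clusters. The causes of these shifts were not tested. Regrouped clusters and deposited whole numbers were not run for cells not in the tables. No paired analysis was possible because each condition has 1 library and no result comes from a test. Ratios of Fosl1 are imprecise, since it had 8 or fewer UMIs in 7 of the 10 clusters.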
